A study of Setaria viridis with 40 samples.

Results

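Rubisco activase is encoded in Setaria viridis by 2 adjacent genes, RCA_alpha (Sevir.8G261466) and RCA_beta (Sevir.8G261433). Both were taken by their gene IDs, as 2 of the 38239 genes listed for each leaf library, and were followed across all 10 conditions together with the share of RCA_alpha in the sum of both. The leaves came from the S. viridis line ME034, a model grass that fixes carbon by the C4 pathway, grown for 13 days at 31 °C under 250 umol photons m-2 s-1. Leaves were sampled at the start of the treatments (ctrl_0h) and after 1, 2 and 4 h of control conditions (ctrl_1h, ctrl_2h, ctrl_4h), of high light at 900 umol photons m-2 s-1 (HL_1h, HL_2h, HL_4h) or of high temperature at 40 °C (HT_1h, HT_2h, HT_4h). Each condition had 4 replicates, lettered A to D, and each replicate held mid-leaf pieces pooled from 2 plants, so p-values measure the spread between such pools. The paper states that the treatments were given in separate growth chambers, while control plants stayed in the growth condition. Treatment and chamber therefore cannot be told apart, and the p-values do not cover differences between chambers. No genotype, allele or chemical was varied between the groups, and all of them shared the line, the age and the growth conditions before treatment.

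Rubisco, the enzyme that fixes CO2 in the Calvin-Benson cycle, loses activity when sugar phosphates bind tightly to its active sites. Rubisco activase is a chloroplast ATPase that pulls these inhibitors off and so keeps Rubisco active. Many plants make a longer alpha form, whose extended end carries redox-sensitive cysteines in Arabidopsis, and a shorter beta form. In C4 grasses Rubisco sits in the bundle sheath, and activase is known from many plants as a heat-sensitive step of carbon fixation.

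The 40 libraries were made with a 3' mRNA-seq kit that reads 1 end of each transcript, so a count does not grow with transcript length, and levels are given in CPM, the count scaled to the library total. Library totals ran from 1422507 to 4901131 counts with a median of 3678451, and the ctrl_0h libraries were the shallowest with a median of 2454168. A count of 0 allowed a level of up to 3 counts, which was 0.612 to 2.11 CPM depending on the library. Counting intervals and this limit cover counting error only, because reads of amplified libraries without molecular identifiers are not independent molecules. The library names carried 2 codes for the second index, AK2941 and AK10751, that were spread unevenly over the conditions: ctrl_2h and ctrl_4h had AK2941 alone, while HL_4h and HT_4h each had 3 of 4 libraries with AK10751. Salmon divides reads that fit both genes between them, so a small leak from RCA_beta into RCA_alpha cannot be seen directly. In the 24 libraries of ctrl_1h, ctrl_2h, ctrl_4h and the 3 high light conditions, 69978 counts of RCA_beta went with 10 counts of RCA_alpha. This was a share of 0.0143% (95% exact binomial interval 0.00685% to 0.0263%). The part of such a leak in the RCA_alpha counts was not tested.

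RCA_alpha was at or near 0 in control and high light leaves and was counted in numbers only at 1 and 2 h of high temperature. Of its 425 counts, 406 fell in the 12 high temperature libraries: 218 at HT_1h, 170 at HT_2h and 18 at HT_4h. At ctrl_0h it stood at 0.563, 0.651, 0.703 and 2.18 CPM in replicates A to D, which were 2, 2, 1 and 4 counts. Replicate D was the high one and came from one of the shallow libraries. In the 24 later control and high light libraries, RCA_alpha had 0 counts in 16, 1 count in 6 and 2 counts in 2, and no such library was above 0.541 CPM. These values are at or under the limit that a count of 0 allows, so high light and control were not told apart for RCA_alpha at this depth: the sums were 1 count at HL_1h and 1 at ctrl_1h, 1 at HL_2h and 2 at ctrl_2h, and 3 at HL_4h and 2 at ctrl_4h.

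Under high temperature RCA_alpha was high at 1 and 2 h and low again at 4 h. At HT_1h replicates A to D held 7.07, 7.10, 22.1 and 23.7 CPM, from 30, 26, 82 and 80 counts. At HT_2h they held 11.7, 8.16, 11.8 and 11.9 CPM, from 53, 40, 40 and 37 counts. At HT_4h they held 0.427, 1.20, 2.11 and 1.67 CPM, from 2, 4, 7 and 5 counts. Every HT_1h and HT_2h library was above every control and high light library, whereas the lowest HT_4h library lay below the highest ctrl_4h library at 0.450 CPM and the highest HL_4h library at 0.541 CPM.

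**Figure D1:**
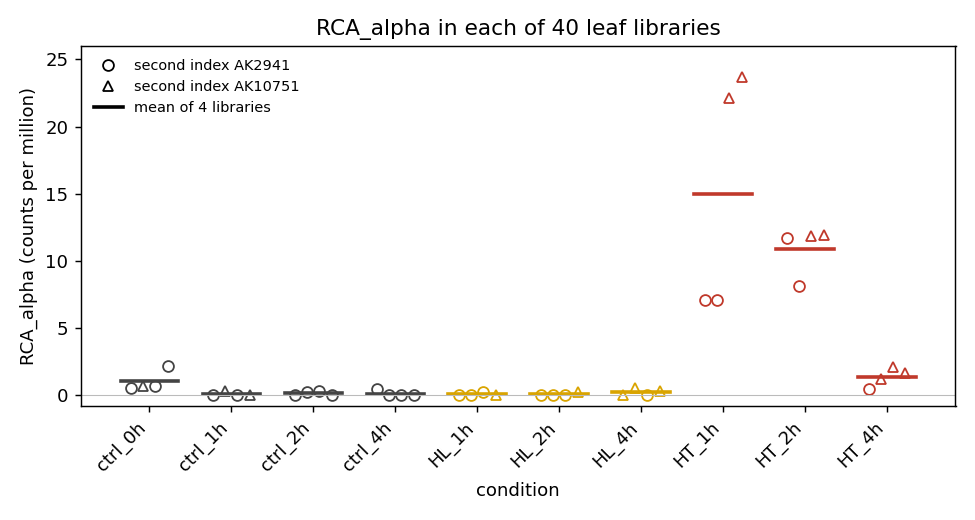
RCA_alpha in CPM (vertical axis) in each of the 40 libraries, by condition (horizontal axis). Points are libraries, with the marker shape giving the second index, and horizontal lines are means of 4. The HT_1h libraries split into 7.07 and 7.10 against 22.1 and 23.7 CPM, and the HT_4h libraries reach 2.11 CPM.

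Against the control of the same time, RCA_alpha was higher at all 3 times of high temperature, least securely at 4 h. Summed over 4 libraries, 218 counts at HT_1h stood against 1 at ctrl_1h, a ratio per library total of 191 (95% exact counting interval 33.8 to 7561). At HT_2h 170 counts stood against 2 at ctrl_2h, a ratio of 79.2 (21.6 to 659), and at HT_4h 18 stood against 2 at ctrl_4h, a ratio of 10.5 (2.53 to 93.8). The edgeR quasi-likelihood fit over all conditions gave log2 fold changes of 7.17 (SE 0.81, adjusted p = 6.05e-09) at 1 h and 6.05 (SE 0.73, adjusted p = 1.07e-07) at 2 h. These fitted values rest on 1 and 2 control counts. Limma on log2(CPM + 1) gave 3.70 at 1 h and 3.38 at 2 h, and on log2(CPM + 0.1) it gave 6.51 and 5.81. Without ctrl_1h B, the only ctrl_1h library with a count, the value at 1 h was 8.99 (adjusted p = 1.56e-07). Over the alternative fits the adjusted p ran from 5.23e-12 to 0.000979 at 1 h and reached at most 5.91e-05 at 2 h. High temperature raised 5.07% of the 14293 tested genes at 1 h, 5.38% at 2 h and 4.22% at 4 h, and the background for complete separation of 4 libraries above 4 was 5.90% of genes at 1 h and 7.68% at 2 h. Above the high light libraries it was 12.1% and 13.0%. RCA_alpha was among the tested genes only because HT_1h and HT_2h passed the filter of 10 counts in 4 libraries, so it had to differ between conditions, and the tests at 1 and 2 h are given as sizes rather than as a discovery.

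The rise at HT_4h was smaller and less secure. Its log2 fold change against ctrl_4h was 3.03 (SE 0.98, adjusted p = 0.0233, edgeR), and the libraries overlapped. The call was lost without any 1 of ctrl_4h B (2.72, adjusted p = 0.0738), ctrl_4h C (2.80, 0.0525), ctrl_4h D (2.70, 0.0707), HT_4h C (2.77, 0.0700) or HT_4h D (2.96, 0.0553). Without ctrl_4h A, which held both control counts, the value was 5.17 (adjusted p = 0.0141). All ctrl_4h libraries carried index AK2941, as did only 1 HT_4h library, the lowest, with 2 counts at 0.427 CPM. Within AK2941 the difference was 1.63 (adjusted p = 0.720, 1 library against 4), and with the index as a term it was 2.30 (adjusted p = 0.102). In every comparison with 1 library on a side, that library was assumed to vary like those of the other conditions. Limma on log2(CPM + 1) gave 1.04 (adjusted p = 0.0282) and on log2(CPM + 0.1) 3.06 (adjusted p = 0.0123). Over all 22 alternative fits the adjusted p ran from 0.00944 to 0.720, and 12 were under 0.05. With 1 library or 1 replicate letter left out, 8 of 12 fits lost the call.

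The 2 treatments were also compared with each other at each time. RCA_alpha was higher under high temperature than under high light by a ratio of summed counts of 213 (95% exact counting interval 37.8 to 8455) at 1 h, 173 (30.6 to 6873) at 2 h and 6.02 (1.76 to 31.9) at 4 h. The fitted log2 differences were 7.04 (SE 0.87, adjusted p = 8.67e-09), 6.95 (SE 0.81, adjusted p = 1.59e-09) and 2.64 (SE 0.90, adjusted p = 0.0111) by edgeR, beside 13.0%, 19.3% and 16.1% of tested genes that were higher under high temperature. Leaving out the single high light library that held most of the few counts raised these values. At 1 h the value was 8.99 without the HL_1h column whose header letter disagreed with its values (adjusted p = 3.61e-07). That column was used for its condition only. The values were 8.37 without HL_2h D (2.50e-08) and 3.47 without HL_4h B (0.00765). At 4 h the second index was better balanced here, and among the AK10751 libraries, 3 against 3, the difference was 2.59 (adjusted p = 0.0109), while 1 AK2941 library against 1 gave 3.80 (adjusted p = 0.333). Over the alternative fits the adjusted p ran up to 0.000255 at 1 h, up to 0.00147 at 2 h and from 0.00526 to 0.333 at 4 h, where 19 of 21 were under 0.05. The call was lost within AK2941 and without replicate C of every condition (1.99, adjusted p = 0.139). Both treatments were set against the same control libraries, so their separate comparisons with control are not independent of each other. Because HT_1h and HT_2h alone brought RCA_alpha past the filter, its differences from high light at 1 and 2 h are also given as sizes.

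Within high temperature the level of RCA_alpha fell between 2 and 4 h. HT_4h was at 0.118 of HT_2h by summed counts (95% exact counting interval 0.0681 to 0.192) and at 0.0864 of HT_1h (0.0502 to 0.140), and every HT_4h library was below every HT_2h and HT_1h library, which held for 6.32% and 8.78% of tested genes. The fitted log2 differences were -3.19 (SE 0.51, adjusted p = 1.93e-05) and -3.77 (SE 0.51, adjusted p = 2.15e-07), and 7.23% and 15.6% of tested genes fell in these comparisons (edgeR). Since HT_1h and HT_2h alone brought RCA_alpha past the filter, a fall from them was favoured by it, and these values too are given as sizes. HT_2h against HT_1h gave -0.58 (SE 0.41, adjusted p = 0.462, 95% interval -1.40 to 0.24) with overlapping libraries. By summed counts HT_4h was at 0.0603 of HT_1h within AK2941 (95% exact counting interval 0.00713 to 0.228), where HT_4h is 1 library with 2 counts, and at 0.0725 within AK10751 (0.0405 to 0.121). The change of the effect against control, in contrast, did not pass: it was -3.02 from 2 to 4 h (SE 1.76, adjusted p = 0.366) and -4.14 from 1 to 4 h (SE 1.98, adjusted p = 0.208). With libraries left out it ran from -3.97 to -0.11 and from -6.41 to -1.58. Without ctrl_4h A it was -0.88 and -2.02, without replicate A of every condition -0.11 and -1.58, and without replicate B of every condition the second was -6.41. These level tests within high temperature were chosen after the values had been seen.

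The 4 HT_1h libraries parted by second index, with 7.07 and 7.10 CPM for AK2941 (A and B) and 22.1 and 23.7 CPM for AK10751 (C and D), a ratio of means of 3.23. At HT_2h the AK2941 libraries held 11.7 and 8.16 CPM and the AK10751 libraries 11.8 and 11.9 CPM, so the ranges lay close together. Over all conditions in 1 fit, the index term for RCA_alpha was 0.92 on the log2 scale, AK10751 above AK2941 (adjusted p = 0.0789, edgeR), beside 6.87% of genes called for the index. For RCA_beta the term was -0.04 (adjusted p = 0.878). Within AK2941 56 counts at HT_1h stood against 0 at ctrl_1h, a ratio whose lower 95% exact counting limit was 13.2, and within AK10751 162 stood against 1, a ratio of 137 (95% exact counting interval 24.3 to 5452). Within AK2941 93 counts at HT_2h stood against 2 at ctrl_2h, a ratio of 73.1 (19.7 to 613), and no AK10751 control exists at 2 h.

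As a share of both activase genes, RCA_alpha remained a minor form in every library. The share needs no scaling between libraries. It was 0.844%, 0.749%, 2.02% and 2.38% at HT_1h, 1.102%, 0.871%, 1.12% and 1.05% at HT_2h, and 0.0662%, 0.178%, 0.269% and 0.237% at HT_4h for replicates A to D. At ctrl_0h it was 0.0450%, 0.0503%, 0.0441% and 0.130%, and in the later control and high light libraries it was at most 0.112%. All HT_1h and HT_2h libraries were above all others, and the mean shares were 1.50% ± 0.825 (SD, n = 4), 1.03% ± 0.113 and 0.187% ± 0.0893 for HT_1h, HT_2h and HT_4h. In terms of means, there were 63.6 RCA_beta counts for each RCA_alpha count at HT_1h, 95.2 at HT_2h and 519 at HT_4h, against 1419 at ctrl_0h and 2252 to 13626 in the later control and high light conditions. The ratio at ctrl_0h rests on 9 RCA_alpha counts and each later one on 1 to 3. The spread among these later conditions is therefore not read.

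**Figure D2:**
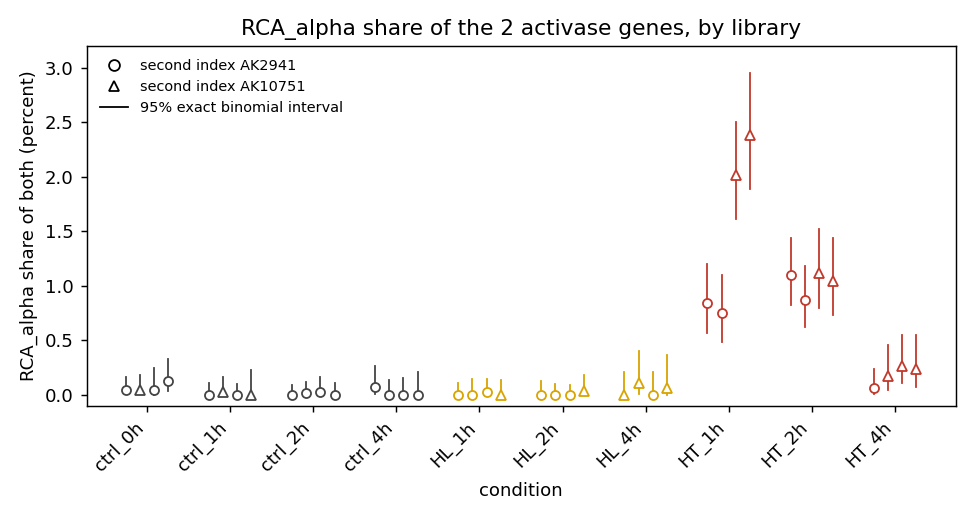
Share of RCA_alpha in the sum of RCA_alpha and RCA_beta (vertical axis, percent) in each library, by condition (horizontal axis). Points are libraries, marker shape is the second index, and lines are 95% exact binomial intervals for counting error. The shares reach 2.38% at HT_1h and no control or high light library is above 0.130%.

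An exact two-sided permutation test on the share gave p = 0.0286, the smallest that 4 against 4 allows, for HT_1h and HT_2h against control and against high light. Adjusted over the 9 comparisons made, each of these was 0.0643 and so did not pass 0.05, although the 4 libraries of one group were above the 4 of the other every time. HT_4h gave p = 0.0571 against ctrl_4h (adjusted 0.103) and p = 0.0857 against HL_4h (adjusted 0.129) by the same exact test. The HL_4h share of 0.0445% ± 0.0546 (SD, n = 4) did not separate from 0.0185% ± 0.0370 at ctrl_4h (exact p = 0.714, adjusted 0.918), and both rest on 2 or 3 counts.

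RCA_beta was abundant in every library, from 397 to 1672 CPM and from 1502 to 4756 counts, and it varied by 3.06-fold between condition means. Its highest condition was ctrl_0h with 1250, 1295, 1595 and 1672 CPM in replicates A to D. The ctrl_1h libraries held 915, 1006, 1072 and 627 CPM, those of ctrl_2h 983, 1176, 998 and 980 CPM, and those of ctrl_4h 606, 670, 631 and 397 CPM. Control leaves thus lost RCA_beta over the sampling hours, and no later control library reached the ctrl_0h range, beside 5.63%, 6.65% and 14.3% of tested genes that were separated downward at 1, 2 and 4 h.

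High light libraries held 899, 649, 971 and 863 CPM at HL_1h, 718, 926, 981 and 751 CPM at HL_2h and 528, 485, 432 and 452 CPM at HL_4h. High temperature libraries held 831, 940, 1073 and 972 CPM at HT_1h, 1048, 929, 1046 and 1126 CPM at HT_2h and 645, 676, 783 and 701 CPM at HT_4h. The high light values of each time overlapped those of the control, and so did the high temperature values, but at 4 h the high temperature libraries were all above the high light libraries.

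**Figure D3:**
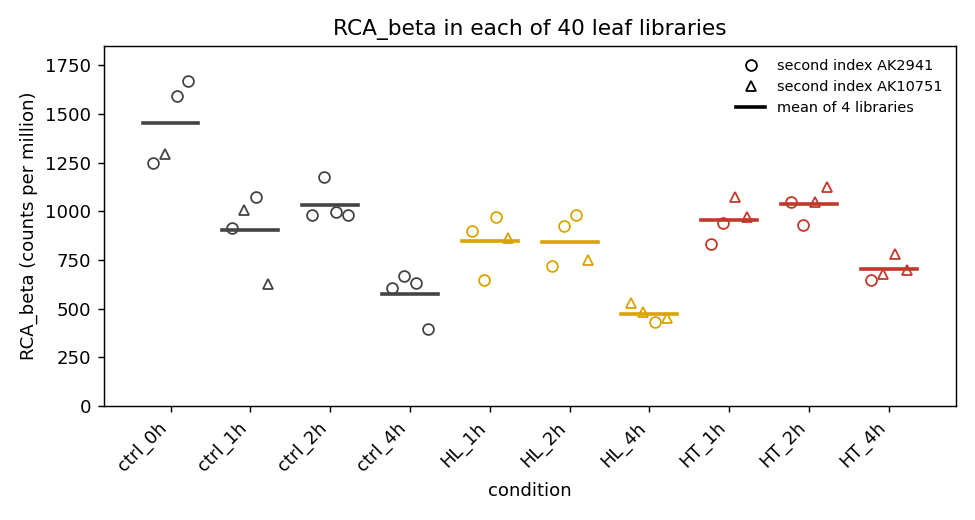
RCA_beta in CPM (vertical axis, from 0) in each of the 40 libraries, by condition (horizontal axis). Points are libraries, marker shape is the second index, and horizontal lines are means of 4. The means fall from 1453 CPM at ctrl_0h to 576 at ctrl_4h, 474 at HL_4h and 701 at HT_4h.

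In control leaves RCA_beta fell by 0.58 at 1 h, 0.50 at 2 h and 1.35 at 4 h on the log2 scale relative to ctrl_0h, which were drops of -33.2%, -29.4% and -60.8%. The adjusted p was 0.0264, 0.0459 and 2.82e-08 by edgeR (SE 0.16, 0.16 and 0.17), and 2.07%, 3.76% and 17.6% of tested genes fell in these comparisons. From 2 to 4 h it fell by 0.85 (SE 0.16, adjusted p = 0.000252), beside 9.05% of genes, with all ctrl_4h libraries under all ctrl_2h libraries as for 10.9% of genes. The 1 h call was lost without ctrl_0h C (-0.53, adjusted p = 0.0860), ctrl_0h D (-0.50, 0.102) or ctrl_1h D (-0.51, 0.116), and over 22 alternatives its adjusted p ran from 0.00588 to 0.535. The 2 h call was lost without ctrl_0h C (-0.45, 0.120), ctrl_0h D (-0.42, 0.146), ctrl_2h A (-0.51, 0.0879), ctrl_2h C (-0.51, 0.0815) or ctrl_2h D (-0.46, 0.123), with adjusted p from 0.0120 to 0.231 over 21 alternatives. Among AK2941 libraries alone the 3 differences from ctrl_0h were -0.58 (adjusted p = 0.188), -0.58 (0.0454) and -1.45 (7.30e-07). RCA_alpha over the same hours went from 9 counts at ctrl_0h to 1, 2 and 2, and its fitted difference passed only at 4 h (-2.70, SE 1.11, adjusted p = 0.0295), where 17.6% of genes fell. That call was lost without ctrl_0h D (-2.14, 0.138), ctrl_4h B (-2.38, 0.0730), ctrl_4h C (-2.48, 0.0588) or ctrl_4h D (-2.37, 0.0740), and without ctrl_4h A the value was -4.88. Its adjusted p ran from 0.00684 to 0.247 over 20 alternatives.

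Under high light RCA_beta was lower than in control at 2 and 4 h. The log2 fold change was -0.42 at HL_2h (SE 0.16, adjusted p = 0.0482) and -0.60 at HL_4h (SE 0.16, adjusted p = 0.00562), or -25.1% and -33.8%, and 13.9% and 12.6% of tested genes fell (edgeR). At HL_1h, where the count table gave 3 usable columns, it was -0.10 (SE 0.18, adjusted p = 0.765, 95% interval -0.46 to 0.26). The effect did not differ between times past the threshold (4 h against 1 h -0.50, SE 0.24, adjusted p = 0.260, edgeR). Both calls depend on how libraries are scaled. With total counts in place of TMM factors the median of all tested genes moved up by 0.11 at HL_2h and 0.32 at HL_4h, RCA_beta stood at -0.29 (adjusted p = 0.166) and -0.28 (adjusted p = 0.171), and the genes called at HL_4h split into 3913 higher and 949 lower instead of 1930 and 1797. Relative to that median RCA_beta was at -0.65 with TMM and -0.66 with total counts at HL_4h, and at -0.43 and -0.42 at HL_2h. Raw CPM means were 844 ± 129 (SD, n = 4) at HL_2h against 1034 ± 94.96, and 474 ± 42.3 at HL_4h against 576 ± 122.

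The HL_2h call was further lost without ctrl_2h B (-0.36, adjusted p = 0.130), HL_2h A (-0.37, 0.124), HL_2h B (-0.46, 0.0528) or HL_2h D (-0.37, 0.126) by edgeR. The HL_4h call held without any 1 library and was lost without replicate B (-0.45, adjusted p = 0.0823) or replicate C (-0.50, 0.0869) of every condition. Among AK2941 libraries the differences were -0.38 at 2 h (adjusted p = 0.119, 3 against 4 libraries) and -0.62 at 4 h (adjusted p = 0.152, 1 against 4). The adjusted p ran from 0.0150 to 0.166 over 23 alternatives at 2 h and from 0.000992 to 0.226 at 4 h. Markers of the bundle sheath moved in the same comparison: 4 of the 6 fell at HL_4h, beside the 12.6% of all tested genes. SBPASE (log2 -0.41, adjusted p = 0.122) and GCH (0.13, adjusted p = 0.606) were not called by edgeR. The summed level of all 6 was 4945 to 6637 CPM against 6105 to 7939 CPM at ctrl_4h. The summed level of 6 mesophyll markers was 8567 to 9394 CPM against 7005 to 7377 CPM. Of these 1 rose by edgeR, beside 13.5% of all tested genes. It was NADP-MDH, with a mean of 102 CPM at HL_4h against 38.1 CPM at ctrl_4h. CA, the most abundant of the 6, had the only negative fitted value and was not called (log2 -0.31, adjusted p = 0.137, edgeR). How specific the markers of either list are to their cell type was not tested. The sums carry no TMM factors, and without such factors the median of all tested genes was itself 0.38 higher at HL_4h (log2). The higher mesophyll sum therefore cannot be read as a rise relative to other genes. The NADP-ME and FBA calls among the bundle sheath markers were lost without ctrl_4h C or HL_4h B (-0.45 to -0.34, adjusted p 0.0648 to 0.127). No marker of either list was at 0 in any condition. The part of cell type makeup in the RCA_beta values was not tested, and in these pooled leaf pieces fewer cells of a type and less RNA per cell cannot be told apart.

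High temperature did not move RCA_beta past the threshold at any time. The log2 fold changes were 0.12 at 1 h (SE 0.16, adjusted p = 0.742, 95% interval -0.21 to 0.44), 0.04 at 2 h (SE 0.16, adjusted p = 0.917, -0.29 to 0.37) and 0.18 at 4 h (SE 0.16, adjusted p = 0.529, -0.15 to 0.51) by edgeR, so the intervals reached no further than -0.29 and 0.51. In the same libraries as the RCA_alpha rise at HT_1h, then, RCA_beta held 954 ± 99.8 CPM (SD, n = 4) against 905 ± 196 in control. All HT_4h libraries of RCA_beta were below all HT_2h and HT_1h libraries, as for 6.32% and 8.78% of tested genes. From HT_2h to HT_4h the log2 difference was -0.71 (SE 0.16), a comparison chosen after the values had been seen. From ctrl_2h to ctrl_4h it was -0.85 (SE 0.16). The change of the high temperature effect from 2 to 4 h was 0.14 (SE 0.23, adjusted p = 0.804, edgeR).

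Compared directly, RCA_beta was higher under high temperature than under high light at 2 and 4 h. The difference was 0.22 at 1 h (SE 0.18, adjusted p = 0.410), 0.46 at 2 h (SE 0.16, adjusted p = 0.0229) and 0.78 at 4 h (SE 0.16, adjusted p = 0.000254, edgeR). At 4 h all HT libraries were above all HL libraries, as for 9.01% of genes. With total counts the differences were 0.30 (adjusted p = 0.135) at 2 h and 0.56 at 4 h, with the median of all genes shifted by -0.14 and -0.23. The 2 h call was lost without HL_2h A (0.41, adjusted p = 0.0693), HL_2h D (0.41, 0.0652) or HT_2h A (0.43, 0.0545). Within AK10751 at 4 h, 3 libraries against 3, the difference was 0.78 (adjusted p = 0.0120), and within AK2941, 1 against 1, it was 0.80 (adjusted p = 0.121). At 2 h the values were 0.39 for AK2941 (adjusted p = 0.154) and 0.58 for AK10751 (adjusted p = 0.268). The adjusted p ran over 22 alternatives from 0.0104 to 0.268 at 2 h and from 1.02e-05 to 0.121 at 4 h.

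**Figure D4:**
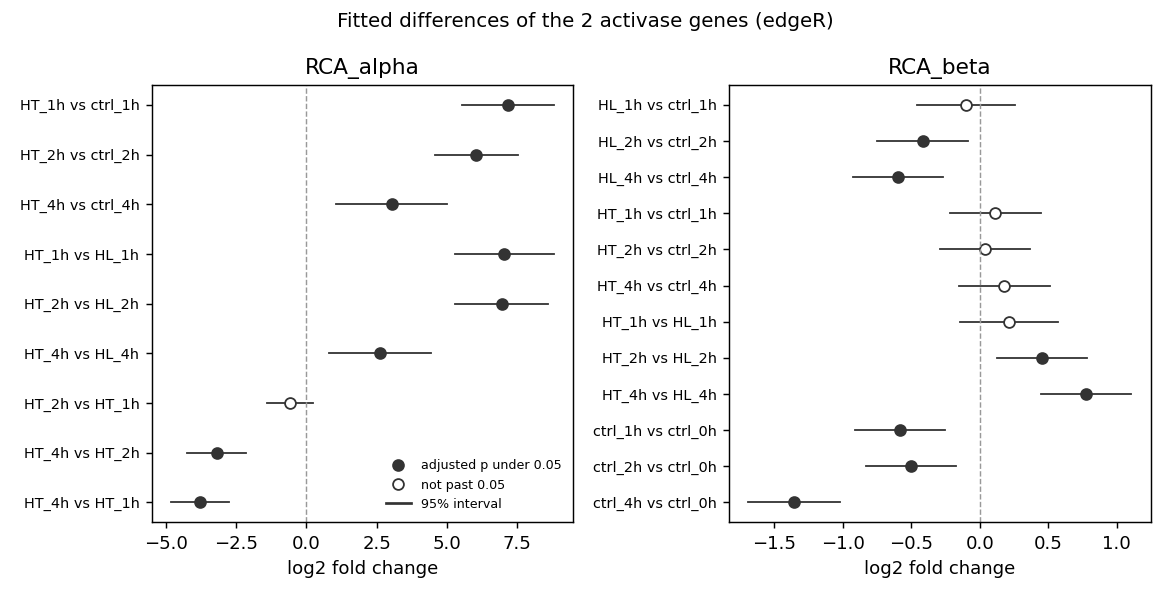
Fitted log2 fold changes (horizontal axis) of RCA_alpha and RCA_beta in the comparisons named on the vertical axis, first group against second. Lines are 95% intervals, filled points passed an adjusted p of 0.05 (edgeR) and open points did not. RCA_alpha spans 7.17 to -3.77, and RCA_beta stays within 0.78 and -1.35.

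Ordered by condition mean, RCA_alpha ran from HT_1h (15.0 ± 9.16 CPM, SD, n = 4) and HT_2h (10.9 ± 1.83) to HT_4h (1.35 ± 0.720) and ctrl_0h (1.02 ± 0.772), followed by HL_4h, ctrl_2h, ctrl_4h, ctrl_1h, HL_1h and HL_2h between 0.211 and 0.0619 CPM. The libraries of HT_1h and HT_2h overlapped, as did those of HT_4h and ctrl_0h, whose summed counts of 18 and 9 gave a ratio per library total of 1.38 (95% exact counting interval 0.589 to 3.49). For RCA_beta the order was ctrl_0h (1453 ± 212 CPM), HT_2h (1037 ± 81.5), ctrl_2h (1034 ± 94.96), HT_1h (954 ± 99.8), ctrl_1h (905 ± 196), HL_1h (846 ± 138), HL_2h (844 ± 129), HT_4h (701 ± 59.3), ctrl_4h (576 ± 122) and HL_4h (474 ± 42.3). Only ctrl_0h was apart from its neighbour in that order, and all other neighbours overlapped. The condition means of the 2 genes on the log2(CPM + 1) scale had a Pearson correlation of 0.38 over the 10 conditions.

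The genes whose condition means were most like those of RCA_alpha carried, for 4 of the 5, the names of chaperones and folding helpers. By Pearson correlation of the mean log2(CPM + 1) over 10 conditions, these were Sevir.3G038600 (0.99), which the annotation used here does not name, an HSP20 family gene (Sevir.5G091000, 0.97), HSP21 (Sevir.6G132300, 0.97), FKBP65 (Sevir.1G164400, 0.96) and HSP15.7 (Sevir.4G111300, 0.96). HSP20 proteins are small heat shock proteins that bind unfolding proteins, HSP21 is the chloroplast member in Arabidopsis, and FKBP65 is a peptidyl-prolyl isomerase. HSP21 went from a mean of 0.146 CPM at ctrl_1h to 312 at HT_1h, 40.7 at HT_2h and 3.04 at HT_4h, and Sevir.3G038600 from 28.1 to 49.6, 54.1 and 39.4 CPM. The 2 HT_1h libraries with high RCA_alpha were also the higher ones for all 5 genes, with 38.9 and 72.6 CPM against 5.65 and 7.10 for Sevir.5G091000, 402 and 407 against 216 and 224 for HSP21, and 60.5 and 63.7 against 36.5 and 37.7 for Sevir.3G038600. The 5 genes were picked for likeness in these same libraries. The share of all tested genes that split this way was not counted, so no weight is put on the split. These correlations describe 10 means from shared libraries and carry no test. Spearman correlations of the same means were lower, at 0.75, 0.85, 0.89, 0.67 and 0.67 in the order listed. Because HT_1h and HT_2h alone brought RCA_alpha past the filter, likeness to genes high under high temperature was favoured.

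For RCA_beta the nearest genes were Sevir.6G182900 (0.98), FKBP16-4 (Sevir.2G069500, 0.98), an FAD/NAD(P)-binding oxidoreductase (Sevir.1G167800, 0.98), Sevir.4G055200 (0.96) and Sevir.9G336900 (0.96), of which 3 have no name in the annotation used here. FKBP16-4, an immunophilin named after its Arabidopsis counterpart, had its highest mean of 223 CPM at ctrl_0h, and fell to 120 at ctrl_4h and 115 at HL_4h. The oxidoreductase had 223 CPM at ctrl_0h and 84.7 at ctrl_4h. All 5 shared with RCA_beta a low mean at ctrl_4h and HL_4h and passed the test in none of the 6 comparisons with control, with adjusted p of 0.0513 and up.

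**Figure D5:**
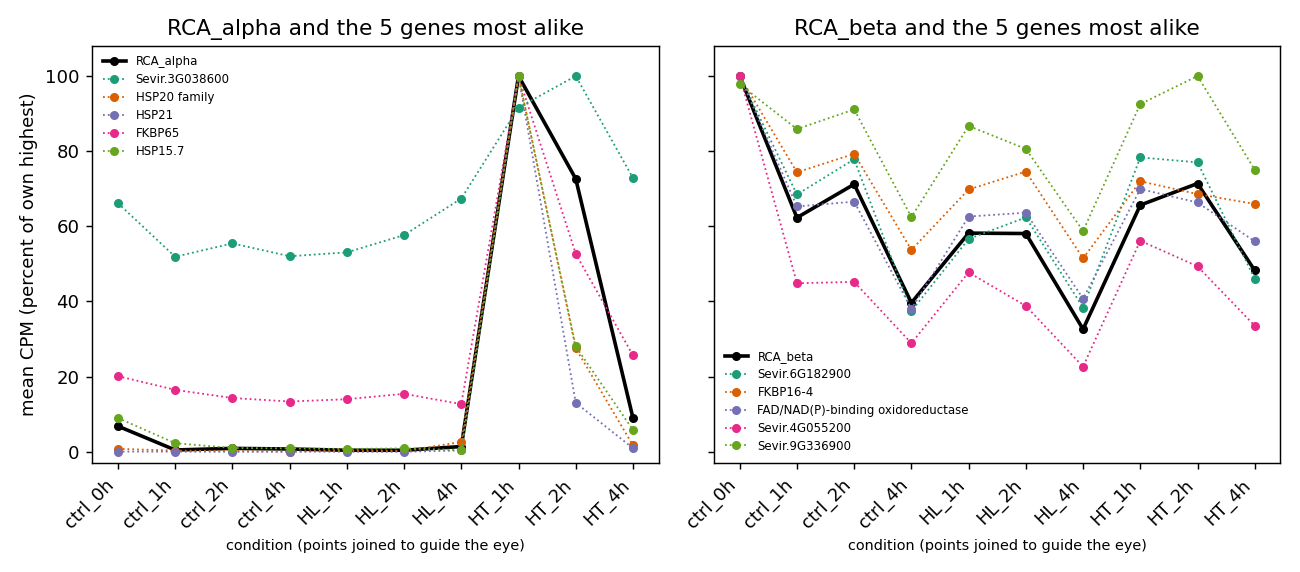
Mean CPM per condition as a percent of each gene's own highest condition mean (vertical axis), for RCA_alpha (left, black) and RCA_beta (right, black) and the 5 genes most like each (coloured), by condition (horizontal axis); points are means of 4 libraries. RCA_alpha is at 72.6% of its highest mean at HT_2h and 9.01% at HT_4h.

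The gene IDs place RCA_alpha and RCA_beta side by side on chromosome 8 with 0 listed genes between them. Of the nearest 2 genes on each side by gene number, Sevir.8G261300 was at 0 in all libraries, Sevir.8G261400 was above 0 in 6 and Sevir.8G261532 in 2. Sevir.8G261499 was low but passed the filter, with 1.79 ± 0.668 CPM at HT_1h, 3.76 ± 0.802 at HT_2h and 3.08 ± 0.627 at HT_4h (SD, n = 4), against 2.35, 1.91 and 0.951 CPM in the matched controls. Its difference from control did not pass under high temperature (log2 -0.35, 1.00 and 1.55, adjusted p = 0.794, 0.279 and 0.103, edgeR), so the HT_1h level of RCA_alpha had no match among these neighbours.

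The genes of Rubisco itself were followed in the same comparisons. The list of Rubisco small subunits, assembly factors and inhibitor phosphatases came from the study's pathway table and so is not independent of these samples. It held 14 genes, 11 of them tested. Of these 1, 3 and 3 were called at HL_1h, HL_2h and HL_4h and 2, 1 and 1 at HT_1h, HT_2h and HT_4h (edgeR), beside 18.4%, 30.4%, 26.1%, 10.5%, 10.8% and 9.82% of all tested genes, and RAF2 (Sevir.7G340300), an assembly factor of Rubisco, had the most calls. RAF2 rose at HL_1h (log2 0.57, SE 0.17, adjusted p = 0.0138), HL_2h (0.67, SE 0.16, 0.00117), HL_4h (0.73, SE 0.17, 0.000878) and HT_1h (0.60, SE 0.16, 0.00900) by edgeR, and went from 62.3 CPM at ctrl_1h to 87.0 at HL_1h and 92.4 at HT_1h. The HL_1h call was lost without ctrl_1h D (0.47, 0.0593) or the HL_1h column with no letter (0.49, 0.0835), and the other 3 held when any 1 library was left out.

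Of the small subunit genes, RBCS_A fell at HL_4h (log2 -0.96, SE 0.18, adjusted p = 6.66e-05), from 6042 to 3841 CPM, and RBCS_C fell at HT_1h (-0.90, SE 0.20, 0.00159), from 580 to 306 CPM. Both calls held when any 1 library was left out. RBCS_C rose at HL_2h (0.53, adjusted p = 0.0362), which was lost without any 1 of 7 libraries, all but HL_2h B (0.44 to 0.54, 0.0595 to 0.135). RBCS_B fell at HL_2h (-0.49, 0.0416), lost without ctrl_2h B or D or HL_2h B or C (-0.52 to -0.44, 0.0571 to 0.105). It rose at HT_2h (0.64, 0.0220), lost without ctrl_2h A, C or D or HT_2h C (0.57 to 0.62, 0.0538 to 0.0688), and at HT_4h (0.59, 0.0383), lost without ctrl_4h A or B or HT_4h A or B (0.39 to 0.65, 0.0511 to 0.158). XUBPASE/CBBY, named for the phosphatase that clears a Rubisco inhibitor, fell at HL_4h (-0.70, 0.0479), lost without any 1 of 6 libraries, all but ctrl_4h A and HL_4h A (-0.74 to -0.60, 0.0615 to 0.134). The small subunit genes are close copies, so their shares of reads are uncertain. The list's median log2 fold change was -0.20 at HT_1h, 0.05 at HT_2h and 0.11 at HT_4h, and -0.14, -0.14 and -0.19 under high light, while the median over all tested genes lay between -0.02 and 0.06.

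Of 17 tested genes among the 18 other Calvin-Benson cycle genes in that table, 1 rose and 5 fell at HL_4h (edgeR), beside 13.5% and 12.6% of all tested genes, with a median of -0.41 against 0.06 over all tested genes. The gene that rose was TKL1 (log2 1.11, adjusted p = 0.0300), a call lost without any 1 of 6 libraries, all but ctrl_4h A and HL_4h C (0.91 to 1.12, 0.0567 to 0.110). The clearest were TKL2_A (log2 -0.99, adjusted p = 7.28e-05), RPE (-0.85, 0.000191) and TKL2_B (-1.66, 0.000477), where TKL stands for transketolase and RPE for ribulose-phosphate epimerase, and these calls held when any 1 library was left out. At HL_2h, where 30.4% of all tested genes were called, TKL2_B fell (-2.12, 0.000244) and TKL1 rose (1.23, 0.0201), the latter lost without ctrl_2h D (0.99, 0.0876) or HL_2h D (0.56, 0.323). At HT_1h, with 10.5% of genes called, TKL2_A fell (-0.64, 0.0175) and TKL2_B rose (1.44, 0.0218), each lost without any 1 of 4 libraries: ctrl_1h D, HT_1h D and 2 HT_1h columns with no letter for TKL2_A (-0.61 to -0.52, 0.0507 to 0.0895), and ctrl_1h A, ctrl_1h D and 2 HT_1h columns with no letter for TKL2_B (1.22 to 1.31, 0.0610 to 0.0868). A phosphoribulokinase gene, PRK (Sevir.7G233100), rose at HT_2h (0.50, 0.0312) and HT_4h (0.63, 0.00899), beside 10.8% and 9.82% of genes called, and the former was lost without any 1 of 6 libraries, all but ctrl_2h B and HT_2h D (0.43 to 0.49, 0.0574 to 0.106). The other PRK gene, Sevir.1G289200, was more abundant, with 929 against 69.2 CPM at HT_4h. It was not called at HT_2h (-0.06, 0.885) or HT_4h (0.39, 0.213). At HL_1h edgeR called 0 of the 17, with 1 at an unadjusted p under 0.05 and 1 by DESeq2. At HT_1h the largest fitted rise on these lists was 1.44 on the log2 scale, beside 7.17 for RCA_alpha.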

How the data were processed

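RNA from 40 leaf samples was sequenced from the 3' end. The authors trimmed reads with Trim Galore 0.6.2, assigned them to S. viridis v2 transcripts with Salmon 1.1.0 in quasi-mapping mode and summed them per gene with tximport. The deposited table holds raw counts in 40 columns, of which 39 were used. The remaining 1 carried a header that disagreed with the library whose values it held. A further 4 columns were used for their condition only and are called columns with no letter. Their header letter disagreed with their values or was shared with another column. The deposited per-sample values, named TPM, were CPM per the values: each was a count scaled to the library total with no gene length, and counts rebuilt from them differed from the table by at most 0.571. Every row of the table named a gene.

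The 14293 genes that reached 10 counts in 4 or more libraries entered 1 fit over 10 conditions with TMM factors and the quasi-likelihood test of edgeR 4.0.16 (R 4.3.3), with Benjamini-Hochberg adjustment within each comparison at 0.05. The study's own method for this step, DESeq2, was run as an alternative (1.42.0), as were other scalings, filters, the second index, replicate letters and left-out libraries, with limma 3.58.1 on log2(CPM + 1) and log2(CPM + 0.1). Shares were compared by exact two-sided permutation (scipy 1.17.1). Scripts were tested on simulated data. Comparisons within 1 second index used rebuilt counts and were added after seeing the data.

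Both activase genes, the list members past the threshold on the Rubisco list, the 3 Calvin-Benson genes with the smallest adjusted p among those called per comparison, the 5 most alike genes and the nearest 2 genes on each side were named. TKL1 at HL_4h was named after its value was seen. The members and lists were chosen with earlier results of these data known. Bundle sheath markers and the Calvin-Benson list share genes (PRK Sevir.1G289200, FBA, RPE, SBPASE). No sequence or coordinate was used here.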

Additional observations from a re-analysis of the deposited data

Results flagged for a closer look

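In groups of 4 libraries, a library far from the other 3 was looked for in 30 groups (RCA_alpha, RCA_beta and the share in each condition), and 12 had one. For continuous values chance marks about 1 in 20 groups, but 8 of the groups held 1 library above 0 and 3 at 0 and are marked by construction. For RCA_alpha the single high libraries were 2.18 CPM at ctrl_0h, 0.294 at ctrl_1h, 0.253 at HL_1h, 0.248 at HL_2h and 0.450 at ctrl_4h, from 1 to 4 counts each. The same libraries stood out in the share, with 0.130%, 0.0292%, 0.0260%, 0.0330% and 0.0741%. At HT_2h the low library was replicate B with 8.16 CPM of RCA_alpha. For RCA_beta the high library was ctrl_2h B with 1176 CPM.

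Heat and high light differed in their effect against the shared control, by the direct comparison of the treatments (edgeR). For RCA_alpha the log2 difference was 7.04 at 1 h, 6.95 at 2 h and 2.64 at 4 h, and for RCA_beta it was 0.46 at 2 h and 0.78 at 4 h. The RCA_alpha differences at 1 and 2 h were favoured by the filter and are sizes only.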

How the results depend on the processing

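RCA_alpha at HT_1h and HT_2h against control and against high light, and its falls to HT_4h, kept direction and call under every alternative run, but these groups brought it past the filter, so this is no sign of stability. At HT_4h against control the value was 2.30 with the index as a term, 1.63 within AK2941 and 1.04 by limma on log2(CPM + 1), and with 1 library or letter left out it ran from 2.48 to 5.47. At HT_4h against high light it was 3.80 within AK2941 and 1.99 to 3.48 with libraries left out. HT_2h against HT_1h turned to 0.43 within AK2941. RCA_alpha at ctrl_4h against ctrl_0h ran from -5.07 to -1.86 with libraries left out.

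RCA_beta at HL_2h was -0.29 with total counts, -0.44 with no filter, -0.41 with the index term, -0.38 within AK2941 and -0.30 by limma with either pseudocount, and -0.51 to -0.36 with libraries left out. At HL_4h it was -0.28 with total counts, -0.62 within AK2941 and -0.26 by limma with either pseudocount, and -0.73 to -0.45 with libraries left out. HT_2h against HL_2h was 0.30 with total counts, 0.39 within AK2941 and 0.58 within AK10751 (0.34 to 0.55 with libraries left out), and HT_4h against HL_4h was 0.80 within AK2941. ctrl_1h against ctrl_0h was -0.58 with no filter and within AK2941, -0.50 within AK10751 and -0.61 with only the groups compared (-0.72 to -0.44 with libraries left out), and ctrl_2h against ctrl_0h was -0.48 with no filter (-0.67 to -0.42). Values near 0 changed sign: HT_1h to -0.0914 within AK2941, HL_1h to 0.0651 within AK10751 (-0.21 to 0.0726 with libraries left out), HT_2h (-0.0460 to 0.15), ctrl_2h against ctrl_1h (-0.0251 to 0.17), and the high light effect at 4 h against 2 h to 0.0131 with total counts. Beyond the scaling, whose shift of the gene median is given with the results, and the smaller number of libraries within an index, the cause was not tested.

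Rubisco list calls became 0 at HL_1h (within either index and with only the groups compared), 1, 0 and 1 at HT_1h (AK2941, AK10751, groups compared), and 0 at HT_2h with the index term. At HT_4h they were 2 with total counts and with limma, and 0 with no filter, the index term and AK2941. With libraries left out they ran from 0 to 1, 1 to 3, 0 to 2, 0 to 2 and 0 to 1 at HL_1h, HT_1h, HL_2h, HT_2h and HT_4h. Calvin-Benson calls were 1 at HL_1h with no filter, DESeq2, rebuilt counts, the replicate block, the index term and limma. They were 0, 1 and 1 at HT_1h (AK2941, AK10751, limma with 0.1), 1 and 4 at HL_2h (AK2941, groups compared), 0 at HT_2h with no filter and the index term, 2 at HL_4h and 0 at HT_4h within AK2941. With libraries left out they ran from 0 to 1, 0 to 2, 1 to 3, 0 to 1, 3 to 8 and 0 to 1 at HL_1h, HT_1h, HL_2h, HT_2h, HL_4h and HT_4h. The share difference at HL_1h was 0.00137 with the count columns and 0.0456 as a log2 ratio (-0.00731 to 0.00651 with libraries left out), and at HL_2h it ran from -0.0128 to 0.000900.

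Replicate letters did not pair the samples: of 24 same-letter pairs 3 had correlated deviations over 0.1 (-0.22 to 0.25), and the own letter was the best match in 4. With the replicate block RCA_alpha was 7.02, 6.13 and 2.98 at HT_1h, HT_2h and HT_4h, RCA_beta was -0.42 at HL_2h and -0.59 at HL_4h, and the block changed no activase call. The share tests, paired by letter, gave adjusted p of 0.225 at HT_1h and HT_2h by an exact test. Depth limits RCA_alpha outside HT_1h and HT_2h, where most libraries hold 0 to 4 counts.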

Other observations

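The parting of HT_1h libraries by second index was not the same size in the genes most like RCA_alpha. The AK10751 libraries were above the AK2941 libraries for FKBP65 with 155 to 157 CPM against 134 to 136 CPM, and for HSP15.7 with 36.1 to 86.4 CPM against 30.4 to 32.8 CPM. RCA_beta in the same libraries held 972 and 1073 CPM for AK10751 and 831 and 940 CPM for AK2941. How many of all tested genes parted this way was not counted. Sevir.8G261499, next to the pair, was lower under high light than in control at 2 h (log2 -1.84, adjusted p = 0.0428, edgeR) and higher under high temperature than under high light at 2 h (2.83, adjusted p = 0.00062) and 4 h (1.72, adjusted p = 0.0277), from levels of 0.549 CPM at HL_2h and 3.76 CPM at HT_2h.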
